A study of Bos taurus with 8 samples.

Results

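C5AR1 and C5AR2 are the genes of the receptors for C5a, the peptide that is released when complement component C5 is cleaved. They are 2 of the 21861 genes in the single-cell RNA tables of bovine peripheral blood mononuclear cells (PBMCs), listed there as ENSBTAG00000020872 and ENSBTAG00000037735. C5AR2 was chosen because its RNA was among the largest falls over all cells after 2 h with lipopolysaccharide (LPS), the outer membrane component of Gram-negative bacteria. C5AR1 was taken with it as the other receptor of the same ligand. The levels over all cells are therefore a description, as are the 2 h values of C5AR2 in the cells that hold most of its UMIs. No test stands behind any value given here, because each treatment had 1 library.

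C5a draws monocytes and granulocytes to sites of complement activation and raises their oxidative burst and cytokine release. C5AR1 is the receptor that signals through heterotrimeric G proteins and is then phosphorylated and bound by β-arrestins. C5AR2 also binds C5a and its form without the last arginine, does not couple to G proteins, recruits β-arrestins, and has been described both as a scavenger of C5a and as a modulator of C5AR1. In blood both are known from cells of the monocyte and granulocyte lineages, and LPS acts on monocytes through TLR4 and CD14.

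The blood of 4 lactating Holstein cows aged 2 years was pooled and split into 4 parts. The no LPS part received none, and the others received 2 µg/ml LPS as whole blood for 2 h, 4 h or 8 h, after which PBMCs were isolated. Each part gave 1 single-cell RNA (scRNA-seq) and 1 single-cell chromatin accessibility (scATAC-seq) library. How long the no LPS part was incubated is not given in the sources used here, so LPS and time in incubation cannot be told apart, and the same holds for treatment and library. Of 30756 scRNA-seq barcodes 30575 were kept, between 3830 and 10376 a library, with 30879324 to 63720614 unique molecular identifiers (UMIs, counts of single RNA molecules) and a median of 4190.5 to 5053 UMIs a cell. Pairs of RNA libraries shared 8 to 24 barcode sequences, at most 0.363% of a library. All intervals are exact 95% intervals of the counts and cover counting error only.

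Levels were read in cell groups built from the data without the receptor genes. Among 25 clusters, cluster 6 was the only one in which CD14, the LPS co-receptor, and CSF1R, the receptor of macrophage colony-stimulating factor, were both at least 3 times their level over all cells. It is called CD14/CSF1R-positive here. All 10 monocyte markers had UMIs in it in every library, but so had all 9 T cell, 8 B cell and 6 natural killer (NK) cell markers. Detection alone therefore does not tell cell types apart. Under the stricter marker rule given with the processing, 10 monocyte, 2 neutrophil, 1 dendritic cell and 1 plasma cell marker passed in cluster 6. The T cell, B cell and NK cell markers that passed numbered 0. Cluster 15 alone outside cluster 6 passed the limit of 3 times for CSF3R, the receptor of granulocyte colony-stimulating factor, and is called CSF3R-positive. Its cells held few UMIs, with a median of 0.343 of that of their own libraries, just above the limit of 1/3 under which a cluster was set apart. The CD14/CSF1R-positive cells numbered 1150, 496, 244 and 194 and the CSF3R-positive cells 156, 504, 339 and 114 (no LPS, 2 h, 4 h and 8 h, the order used throughout).

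Over all cells both receptors were highest without LPS, lowest at 2 h or 4 h and between these at 8 h. Levels are given in CPM, counts scaled so that the UMIs of a sum come to 1e6. C5AR1 stood at 139 CPM without LPS, then 21.1, 15.8 and 46.2, from 8081, 1347, 894 and 1426 UMIs. C5AR2 stood at 21.6 CPM without LPS, then 2.17, 2.50 and 7.35, from 1253, 138, 141 and 227 UMIs. Except for C5AR2 at 2 h and 4 h, with intervals of 1.82 to 2.56 and 2.10 to 2.95, no interval of a gene overlapped that of another of its libraries. Each comparison with LPS uses the same no LPS library.

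As log2((CPM + 1)/(CPM + 1)) against no LPS, the scale of every log2 ratio given here, C5AR1 was at −2.66, −3.06 and −1.57 and C5AR2 at −2.84, −2.69 and −1.44. Intervals of ratios are those without the pseudocount of 1, and without it C5AR2 was 9.98-fold lower at 2 h. With cells of at most 3000 genes only, the ratios at 8 h were −2.46 for C5AR1 and −2.20 for C5AR2. Of 12560 genes with at least 20 UMIs, 2.75% were at least 2-fold lower at 2 h, and the shares at 4 h and 8 h were 3.75% and 1.18%, while 0.82%, 1.25% and 0.479% were at least 2-fold higher. Among the 9823 genes with at least 200 UMIs, C5AR2 was the 5th and C5AR1 the 9th from the largest fall at 2 h. Just ahead of C5AR2 were NRN1, a cell surface gene best known from neurons, at −3.17 and the unnamed gene ENSBTAG00000049346 at −3.10, and just behind it were the haemoglobin scavenger receptor CD163 at −2.71 and the growth factor AREG at −2.69. At 4 h C5AR1 was 14th and C5AR2 22nd of 9769 genes, and at 8 h they were 39th and 53rd of 9483.

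**Figure D1:**
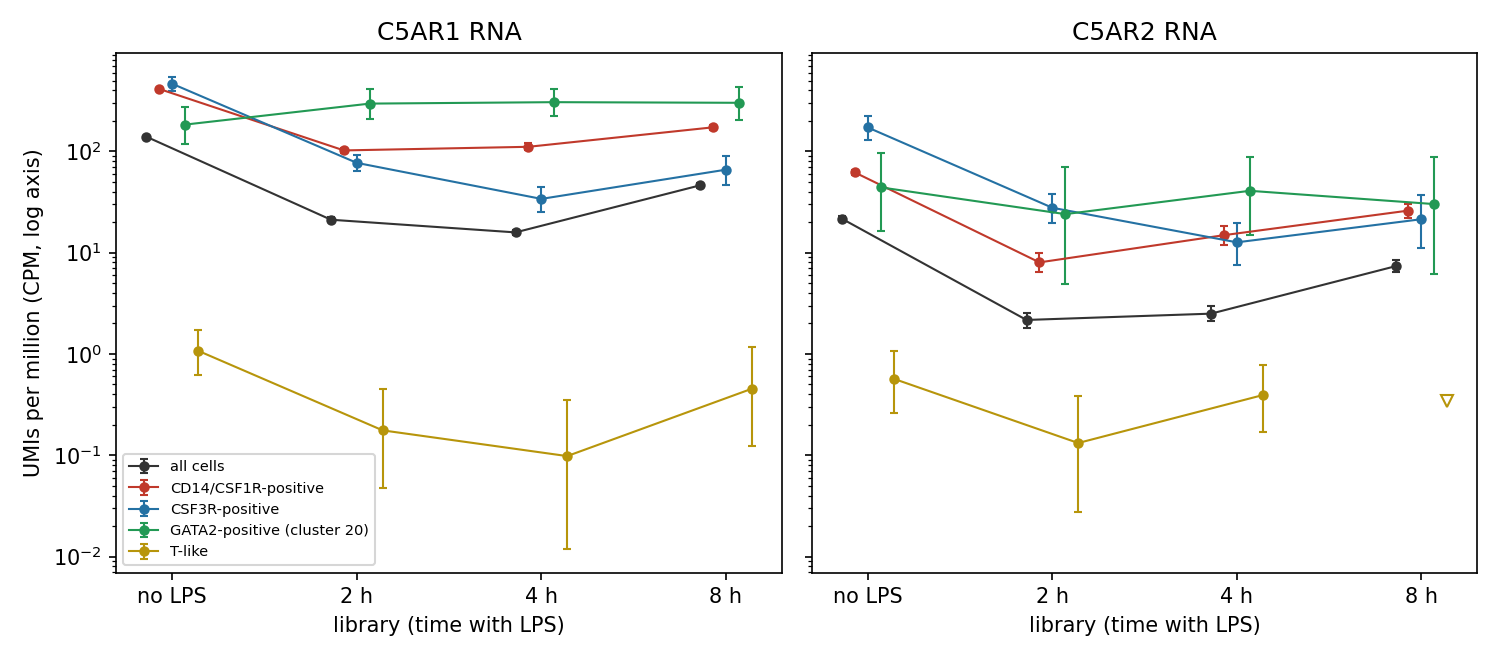
RNA levels of C5AR1 (left) and C5AR2 (right) in CPM, on a log axis, by library and cell group. Points are levels of summed UMIs, bars are exact 95% Poisson intervals, and the open triangle marks the level of 3 UMIs for the T-like cells at 8 h, where no C5AR2 UMI was found. In the CD14/CSF1R-positive cells C5AR1 goes from 413 without LPS to 102 at 2 h and 173 at 8 h.

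Nearly all receptor UMIs lay in few cells. Without LPS the CD14/CSF1R-positive cells were 13.6% of the cells and 29.0% of the UMIs, and they held 86.0% of the C5AR1 UMIs (85.3 to 86.8) and 83.2% of the C5AR2 UMIs (81.0 to 85.2). With LPS they held 77.6%, 70.0% and 77.7% of the C5AR1 UMIs. For C5AR2 the shares were 59.4%, 59.6% and 73.6%. In the same libraries the cells themselves were 4.78%, 3.08% and 5.07% of all cells and held 16.1%, 10.0% and 20.8% of all UMIs, below their shares without LPS at each time. The share of all cells at 8 h also depends on the clusters set apart for few UMIs. Those clusters held 25.9% of the cells at 8 h, against 5.15% without LPS, 3.75% at 2 h and 3.43% at 4 h.

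The CSF3R-positive cells carried 4.23% of the C5AR2 UMIs without LPS and 29.0% at 2 h, while their share of all cells was 1.85% and 4.86%. Without LPS the remainder lay mainly in 2 smaller clusters with monocyte genes. Cluster 14, in which CD14 stood beside plasma cell genes and the median UMI count was 10.5 times that of the cells' own libraries, held 8.66% of the C5AR1 and 10.1% of the C5AR2 UMIs of that library. Cluster 7, with CSF1R and the C1Q genes, held 2.39% and 0.878%. At 2 h both clusters together held few C5AR2 UMIs, 4 in cluster 14 and 3 in cluster 7.

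T-like and B-like cells, named from their markers, gave the level at which free RNA and misassigned cells can be read. C5AR1 was at 1.07, 0.176, 0.0981 and 0.453 CPM in T-like cells and between 0.133 and 1.03 in B-like cells. C5AR2 was at most 0.569 in either, and NK-like cells held 3 C5AR1 UMIs without LPS and 0 in each LPS library. The low-UMI clusters, nearer in depth to the CSF3R-positive cells, held C5AR1 at 16.0, 1.71, 0 and 8.83 CPM and C5AR2 at 1.46, 0, 2.20 and 4.12. Among them cluster 21 held C5AR1 at 153 CPM without LPS, in 25 cells. The levels in the CD14/CSF1R-positive and CSF3R-positive cells were above these in every library.

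**Figure D2:**
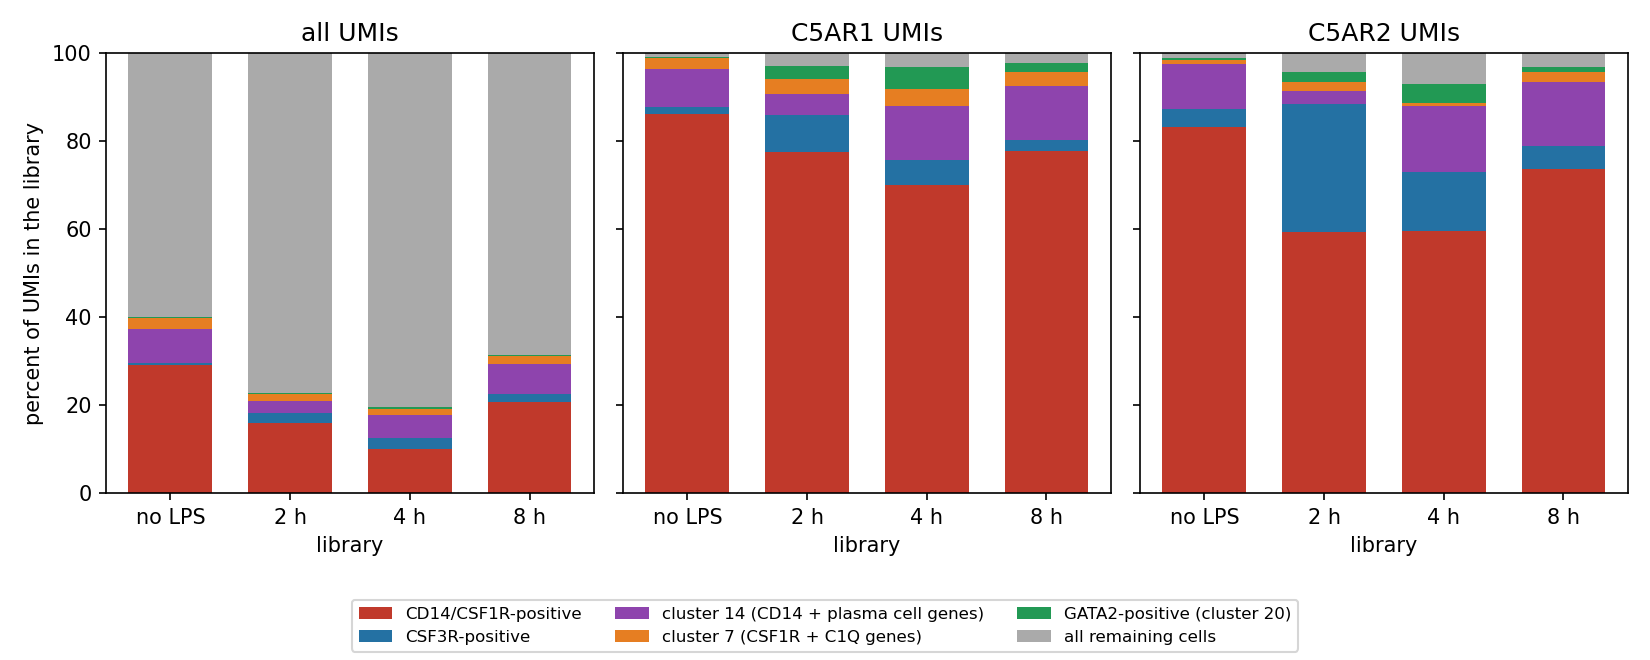
Percent of all UMIs (left), of C5AR1 UMIs (middle) and of C5AR2 UMIs (right) in each library that came from 6 cell groups, stacked to 100. CD14/CSF1R-positive cells hold 29.0% of all UMIs without LPS and 86.0% of the C5AR1 UMIs, and the CSF3R-positive cells reach 29.0% of the C5AR2 UMIs at 2 h.

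A fall in CPM over all cells can hold both a smaller share of UMIs from cells that carry a receptor and a lower level per UMI in them. The 2 were set apart by calculation, chosen after the data were seen. With the CD14/CSF1R-positive, CSF3R-positive and other cells each given the UMI share they had without LPS, C5AR1 was at −2.06, −1.94 and −1.23 and C5AR2 at −2.61, −1.93 and −1.16. With the shares as measured and each group's level held as without LPS, C5AR1 was at −0.53, −0.89 and −0.30 and C5AR2 at −0.33, −0.58 and −0.18. With every cell kept, fixed shares thus gave the value further from 0 for each receptor at each time. These levels are per UMI and not per cell. The CD14/CSF1R-positive cells had a median of 5 C5AR1 UMIs both without LPS and at 8 h, while their median of all UMIs was 13358 and 29028.5. The other cells joined clusters whose shares moved as well, cluster 14 holding 7.72% of all UMIs without LPS and 2.74% at 2 h. With at most 3000 genes a cell the order turned at 8 h, where fixed shares gave −0.53 for C5AR1 and −0.84 for C5AR2 and fixed levels −1.69 and −1.16. Under that limit both calculations gave close values for C5AR1 at 4 h, −1.60 and −1.54.

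Within the CD14/CSF1R-positive cells both receptors were lower in every LPS library, and at 2 h C5AR2 had the larger fold. C5AR1 stood at 413 CPM without LPS (403 to 423), then 102 (2 h, 96.1 to 109), 111 (4 h, 102 to 120) and 173 (8 h, 163 to 183). The log2 ratios were −2.0, −1.89 and −1.25. The intervals at 2 h and 4 h overlapped, while the level at 8 h was above that at 4 h, at 0.63 on the log2 scale with an interval of 0.50 to 0.78.

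C5AR2 in the same cells stood at 61.9 CPM without LPS (58.2 to 65.7), then 8.02 (2 h, 6.38 to 9.95), 14.9 (4 h, 11.9 to 18.4) and 26.0 (8 h, 22.2 to 30.3). The log2 ratios were −2.80, −1.98 and −1.22. No intervals overlapped, and the level was higher at 4 h than at 2 h (0.82 on the log2 scale) and higher at 8 h than at 4 h (0.77). The median gene of these cells was itself at −0.28, 0.07 and 0.23, so relative to it the 2 h values are smaller in size and the 8 h values larger. Scaling that allows for this (TMM) gave −1.72 and −2.54 at 2 h and −1.54 and −1.49 at 8 h for C5AR1 and C5AR2.

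The share of genes at least 2-fold lower in these cells was 7.1%, 4.23% and 1.94%, in the order of the times. Among 9973 genes at 2 h, C5AR2 was the 7th and C5AR1 the 52nd from the largest fall. At 8 h they were 122nd and 114th of 9981. The ratios of both receptors thus lay further apart at 2 h than at 8 h.

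**Figure D3:**
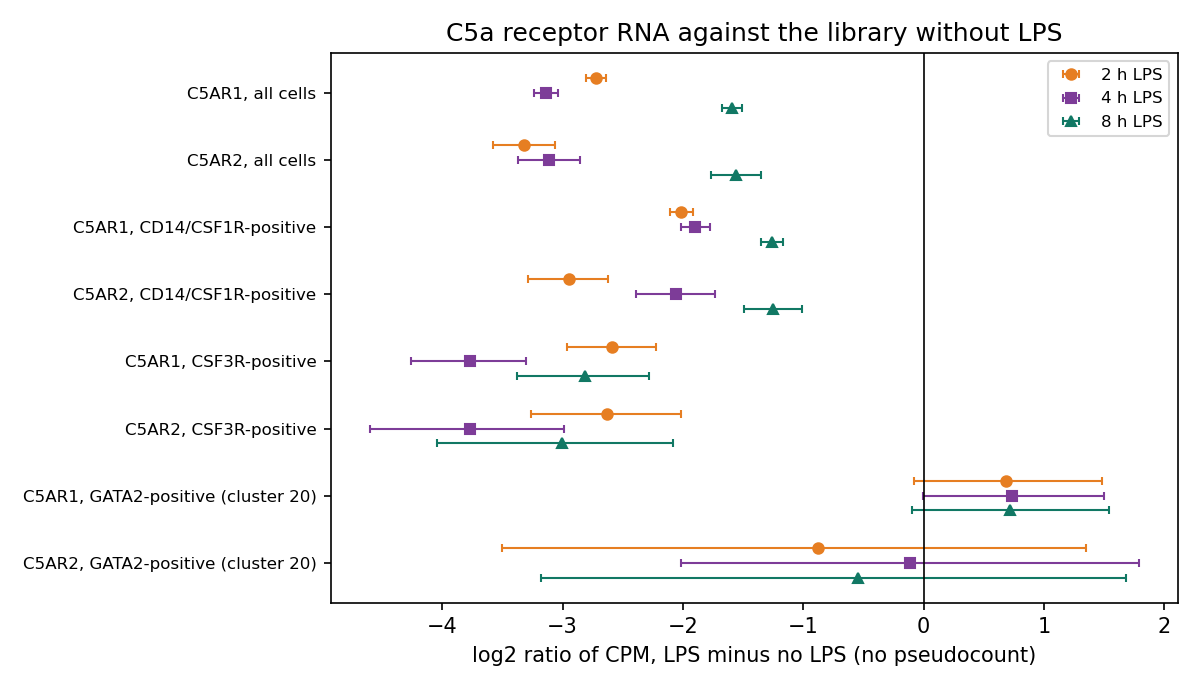
Log2 ratio of CPM, each LPS library against no LPS, without a pseudocount, with exact conditional 95% intervals of the counts. In all cells, CD14/CSF1R-positive and CSF3R-positive cells all points of both receptors lie below 0, and in the GATA2-positive cluster 20 the C5AR1 points lie above 0 with intervals that reach it.

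The summed level of the 10 monocyte markers in the CD14/CSF1R-positive cells was 5670 CPM without LPS and 3406, 3244 and 3800 with LPS, lower in each LPS library as the receptors were. The summed neutrophil markers there stood at 7797, 4051, 5297 and 9980 CPM, with CATHL2 at 0 in each library, and the summed T cell markers at 120, 104, 158 and 166. Their part in the receptor values was not tested.

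The 8 h value depended on the size of the cells counted. The CD14/CSF1R-positive cells had a median of 13358 UMIs a cell without LPS and 17958.5, 20251.5 and 29028.5 with LPS, and 287 of 1150, 157 of 496, 126 of 244 and 138 of 194 cells had over 3000 genes. At 8 h C5AR1 stood at 153 CPM in the cells over 3000 genes and at 348 in the 56 cells with up to 3000. With only cells of up to 3000 genes kept in each library, the log2 ratios at 8 h were −0.50 for C5AR1 and −0.83 for C5AR2, and at 2 h they were −2.09 and −3.42. A finer clustering (resolution 2) left 45 cells at 8 h with ratios of −0.50 and −0.29, and under 20 cells at 2 h and at 4 h.

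Counted as cells with at least 1 UMI, each cell first thinned to 2000 UMIs so that depth was equal, 56.6% of the CD14/CSF1R-positive cells had C5AR1 without LPS (548 of 969 cells, 53.4 to 59.7). At 2 h the share was 17.7% (85 of 479), at 4 h 17.5% (41 of 234) and at 8 h 33.0% (60 of 182). For C5AR2 the thinned shares were 12.4%, 1.25%, 5.56% and 3.30%, from 120, 6, 13 and 6 cells, and no order is read between 4 h and 8 h, where the share goes against the level. Thinning left out 181, 17, 10 and 12 cells.

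Without thinning the shares were 85.3%, 70.6%, 72.1% and 88.1% for C5AR1 and 43.1%, 12.1%, 18.4% and 45.4% for C5AR2, where the cells with LPS were deeper, as given above. In T-like cells thinned in the same way the C5AR1 shares were 0.201%, 0.0701%, 0% and 0%, the last 2 with exact binomial upper bounds of 0.110% and 0.296%. The median depth of the T-like cells was 4288 UMIs without LPS. The C5AR1 UMIs of the CD14/CSF1R-positive cells were spread over most cells, with a median of 5, 1, 2 and 5 UMIs a cell. Cells with 5 or more C5AR1 UMIs were 51.7%, 13.7%, 18.4% and 52.6% of them.

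Both receptors were seen together in few thinned cells. Of the 969 thinned no LPS cells, 548 had C5AR1, 120 had C5AR2 and 76 had both, against 67.9 from the product of the shares. With LPS 2, 2 and 3 cells had both, too few to compare with products of 1.06, 2.28 and 1.98.

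C5AR2 made up different shares of the receptor UMIs in the 2 cell groups. UMI counts are not corrected for how well each RNA is captured, so the share is compared between cells and libraries and is not a ratio of molecules. In the CD14/CSF1R-positive cells C5AR2 was 13.0% of the receptor UMIs without LPS (12.3 to 13.8), then 7.28% (2 h, 5.83 to 8.95), 11.8% (4 h, 9.55 to 14.4) and 13.1% (8 h, 11.3 to 15.1). The 2 h interval overlapped none of the others and the others overlapped each other. Because C5AR2 was chosen for its fall at 2 h and most of its UMIs lay in these cells, the lower share at 2 h is a description only. In the CSF3R-positive cells the share was 27.0%, 26.5%, 27.1% and 24.5%, from 196, 151, 70 and 49 receptor UMIs, with intervals from 13.3% to 39.1% in all. Without LPS, at 2 h and at 4 h these intervals lay above those of the CD14/CSF1R-positive cells, and at 8 h they overlapped.

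**Figure D4:**
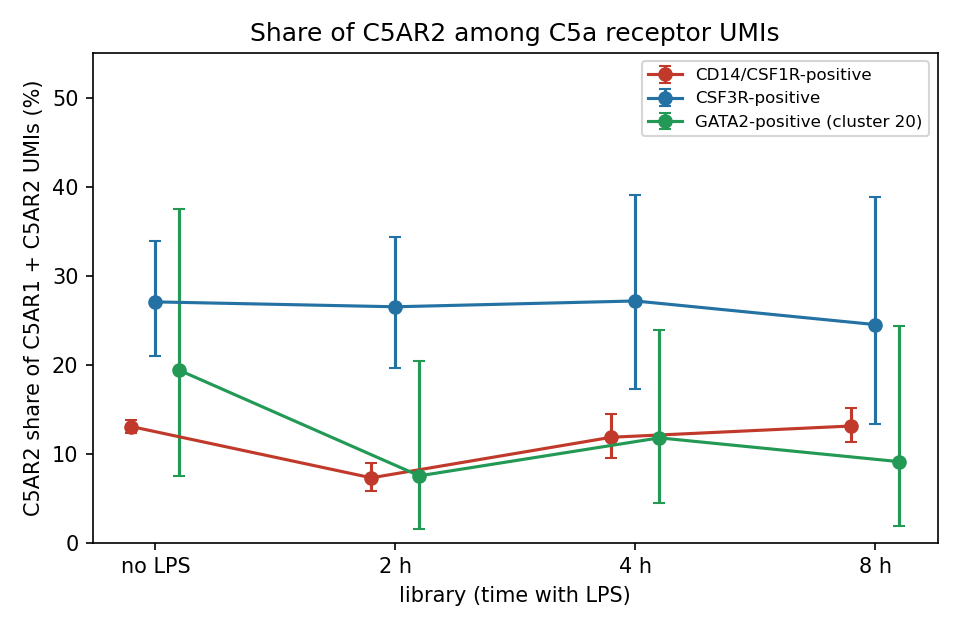
Share of C5AR2 among the UMIs of both receptors, in percent, by library, with exact binomial 95% intervals. The CD14/CSF1R-positive cells are at 13.0% without LPS and 7.28% at 2 h and stand at 13.1% at 8 h, and the CSF3R-positive cells stay between 24.5% and 27.1%.

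Within the CSF3R-positive cells both receptors were lower with LPS as well, on far fewer UMIs. C5AR1 stood at 464 CPM without LPS (391 to 547), then 77.0 (2 h, 63.3 to 92.7), 33.9 (4 h, 25.3 to 44.6) and 65.9 (8 h, 46.4 to 90.9), from 143, 111, 51 and 37 UMIs. C5AR2 stood at 172 without LPS (129 to 225), then 27.7 (2 h, 19.8 to 37.8), 12.6 (4 h, 7.61 to 19.7) and 21.4 (8 h, 11.05 to 37.3), from 53, 40, 19 and 12 UMIs. Both were highest without LPS with no overlap, and the intervals at 2 h and 8 h overlapped for each gene.

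The log2 ratios were −2.58, −3.73 and −2.80 for C5AR1 and −2.59, −3.66 and −2.95 for C5AR2. In these cells 13.8%, 10% and 12.7% of genes were at least 2-fold lower in the 3 LPS libraries, and the median gene was at −0.14, 0.20 and 0.13. C5AR1 was the 28th, 17th and 22nd and C5AR2 the 24th, 20th and 19th from the largest fall, of 5149, 5668 and 3913 genes. In contrast to the CD14/CSF1R-positive cells, the 4 h level of C5AR1 lay below the 2 h level, at −1.16 on the log2 scale with an interval of −1.69 to −0.69.

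Marker levels and depth of the cluster differed between the libraries as well. Sums of marker RNA cannot tell a change in which cells are present from a change within the same cells. The summed level of the 10 neutrophil markers in it was 15847 CPM without LPS and 1370, 946 and 4398 with LPS, and CSF1R was at 0 in every LPS library, as CD163 was in all. The summed B cell markers in it stood at 971, 821, 1001 and 873 CPM, at 4 h above the neutrophil markers. A CSF3R UMI was held by 197 of the 504 cells at 2 h, 183 of 339 at 4 h and 51 of 114 at 8 h. The median UMI count was 1094.5 without LPS and 1450.5, 1980 and 2003.5 with LPS. Whether these differences have a part in the fall of the receptors was not tested. With only cells of at least 1000 UMIs, picked with the values in view, the ratios were −2.41, −3.65 and −2.77 for C5AR1 and −2.46, −3.58 and −2.77 for C5AR2.

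With at most 3000 genes a cell C5AR2 was at −2.28 at 8 h. A finer clustering gave −0.90 for C5AR2 at 2 h, and cells picked by 2 or more CSF3R UMIs without CD14 and CSF1R gave −4.81 at 4 h. After thinning to 1000 UMIs, a depth that 96, 409, 289 and 98 of these cells reach, 39.6%, 8.56%, 6.23% and 5.10% held C5AR1. For C5AR2 the shares were 18.8%, 3.18%, 1.38% and 9.18%.

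A small cluster outside both groups, singled out after its values were seen, held C5AR1 in every library. Cluster 20 held 63, 51, 45 and 30 cells. Among its leading genes was GATA2, a transcription factor of blood progenitors, mast cells and basophils. The cluster held 674 of the 801 GATA2 UMIs of all libraries. It also held 263 of the 437 UMIs of FCER1A, a chain of the high affinity receptor for IgE, and 87 of the 138 UMIs of the cytokine IL13. CSF1R and CSF3R were at 0 in it and 7 of 72511 CD14 UMIs lay there. The markers fixed for naming hold no list for such cells. The cluster is therefore called by GATA2, which ranked 5th among its leading genes, where PTI was 1st.

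C5AR1 in the GATA2-positive cluster stood at 184 CPM without LPS (119 to 271), then 296 (2 h, 208 to 408), 306 (4 h, 223 to 409) and 302 (8 h, 203 to 430), from 25, 37, 45 and 30 UMIs. All these intervals overlapped, so a change was not detectable at this depth. The ratios against no LPS were 0.69, 0.73 and 0.71, with intervals of −0.08 to 1.48, −0.00084 to 1.5 and −0.10 to 1.54. These lay above the intervals of C5AR1 in the CD14/CSF1R-positive cells, which reached −1.92, −1.78 and −1.17 at their upper ends. From 2 h on, C5AR1 was thus higher per UMI in this cluster than in the CD14/CSF1R-positive cells, while the order without LPS was the opposite. The order per cell differed, as the median of all UMIs was 1721 here and 15923 there. The median of C5AR1 UMIs a cell was 0, 0, 0 and 1 here and 5, 1, 2 and 5 there. Thinned to 1000 UMIs, 8 of 50, 9 of 42, 16 of 40 and 11 of 27 cells here held C5AR1. In the CD14/CSF1R-positive cells these were 400 of 1090, 52 of 490, 27 of 240 and 48 of 186. With the cells of the cluster that hold a CD14, CSF1R or CSF3R UMI left out, chosen after the data were seen, the ratios were 0.67, 0.78 and 0.97. The summed monocyte markers of the cluster stood at 544, 144, 102 and 141 CPM and its summed T cell markers at 316, 584, 721 and 412, and their part in the C5AR1 values was not tested. C5AR2 rested there on 6, 3, 6 and 3 UMIs and no direction is read.

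Of the remaining clusters with receptor RNA, both clusters with monocyte genes had lower C5AR1 with LPS. Cluster 22 had higher C5AR1 at 2 h and 4 h. C5AR1 in cluster 14 stood at 156, 38.4, 38.5 and 84.0 CPM and in cluster 7 at 132, 46.7, 38.8 and 79.6. Both were lowest at 2 h or 4 h and higher than these at 8 h. C5AR2 in cluster 7 stood at 7.50 CPM without LPS and 9.25 at 8 h, on 11 and 5 UMIs, and no direction is read. Cluster 22 had the dendritic cell genes FSCN1 and CCL22 among its leading genes. It held C5AR1 at 15.3, 30.5, 32.3 and 13.7 CPM from 18, 27, 25 and 7 UMIs, and no C5AR2 UMI in any library. Its log2 ratios of C5AR1 were 0.94 at 2 h (0.076 to 1.94) and 1.03 at 4 h (0.14 to 2.03), both with intervals above 0, and −0.15 at 8 h (−1.66 to 1.17).

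The genes whose levels were most like those of the receptors were sought over 78 sums of a library and a cluster of at least 50 cells, among 10546 genes. The sums share their libraries, and Pearson's r of log2(CPM + 1) is a description. For C5AR1 these were SDS, a serine dehydratase (0.95), TYROBP, an adaptor of activating myeloid receptors (0.91), the unnamed gene ENSBTAG00000004043 (0.91), the myeloid surface gene VSTM1 (0.90) and the uridine phosphorylase UPP1 (0.89), with C5AR2 9th at 0.88. For C5AR2 these were SDSL (0.93), the myeloid lectin CLEC5A (0.92), the gelatinase MMP9 (0.90), the unnamed gene ENSBTAG00000052822 (0.89) and VSTM1 (0.89), with C5AR1 6th.

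Being found in the same clusters did not mean the same ratio with LPS. In the CD14/CSF1R-positive cells SDS stood at 160, 179, 183 and 150 CPM and UPP1 at −0.40, −0.59 and −0.55 against no LPS, where C5AR1 was at −2.0, −1.89 and −1.25. TYROBP was at −0.88, −1.01 and −0.62. Of the genes like C5AR2, MMP9 was lower than it at each time, at −4.10, −2.99 and −1.82, and CLEC5A was at −1.92, −1.21 and −1.40.

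C5, the source of C5a, was not detected in the CD14/CSF1R-positive cells, with 0 UMIs in every library. Of 21 complement component genes, 12, 11 and 12 had at least 20 UMIs in the 3 comparisons. Of these 4, 5 and 2 were at least 2-fold lower, beside the backgrounds of 7.1%, 4.23% and 1.94%. None was at least 2-fold higher, beside 3.04%, 4.6% and 6.63%. The list's median was −0.36, −0.54 and −0.24. C1QA, C1QB and C1QC, the chains of the recognition molecule C1q, were lowest at 4 h, at −2.31, −2.39 and −2.90, and at −0.35, −0.17 and −0.33 at 8 h. Properdin (CFP), which stabilizes the alternative pathway convertase, was at −1.09, −1.73 and −2.06, and the lectin pathway gene FCN1 at −0.75, −1.32 and −1.26.

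Of 18 other receptor and regulator genes, 16 were in the tables and 9, 8 and 9 had enough UMIs. ITGAM and ITGB2, the 2 chains of complement receptor 3, were at −1.31, −1.52 and −1.10 and at −0.81, −1.18 and −0.69. CR2, the C3d receptor known from B cells, was at 2.44, 2.11 and 1.04 on 41 UMIs without LPS, and the summed B cell markers in these cells stood at 203, 289, 362 and 473 CPM, whose part in this was not tested. The gene CPM (carboxypeptidase M, not the unit), which removes the last arginine of C5a, was at 0.29, 1.1 and 0.75, and C1QBP at 0.21, 0.96 and 1.48. C3AR1, the receptor of C3a, had 19, 4, 0 and 1 UMIs, too few for a ratio at 4 h. The genes higher by at least 2-fold numbered 1, 2 and 2 and the background shares of higher genes were 3.04%, 4.6% and 6.63%. Those lower numbered 1, 2 and 1, ITGAM at each time and ITGB2 at 4 h, beside 7.1%, 4.23% and 1.94%.

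Other chemoattractant receptors of these cells varied in both directions. At 2 h 4 of 9 measured genes were at least 2-fold lower, and at 4 h and 8 h 1 and 2 of 9, beside the 7.1%, 4.23% and 1.94% of all genes. The genes at least 2-fold higher numbered 2, 1 and 1, beside 3.04%, 4.6% and 6.63%. LTB4R, the leukotriene B4 receptor, was at −1.56, −1.13 and −1.91 from 295 CPM without LPS. The chemokine receptor CCR1 was at −1.52, −0.37 and −0.18 and PTAFR, the receptor of platelet-activating factor, at −1.40, −0.40 and −0.42. CXCR1, an interleukin 8 receptor, was at 1.22, 3.1 and 1.29 on 32 UMIs without LPS, and the prostaglandin E2 receptor PTGER2 at 2.07, 0.66 and 0.58 on 26. CMKLR1 was past 2-fold at 2 h and 8 h on 23 UMIs without LPS and at most 2 in an LPS library.

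Among 18 measured genes of G protein signalling and receptor desensitization, ARRB2 had the lowest ratio at 2 h. ARRB2 encodes β-arrestin 2, which binds both C5a receptors after activation, and it was at 81.6, 11.2, 26.0 and 34.9 CPM, or −2.75, −1.61 and −1.20. C5AR2 was at −2.80, −1.98 and −1.22 in the same cells. GNA15, a G protein subunit of blood cells, was at −1.29, −1.28 and 0.25 and the receptor kinase GRK2 at −1.14, −0.50 and 0.32, while RGS1, which speeds the switching off of G proteins, was at 0.84, 1.5 and 1.01. The other 14 were within 2-fold at every time, GNAI2 at −0.69, −0.74 and −0.36 among them. The counts lower by at least 2-fold were 3, 2 and 1 of 18, beside 7.1%, 4.23% and 1.94% of all genes. Those higher were 0, 1 and 1, beside 3.04%, 4.6% and 6.63%.

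**Figure D5:**
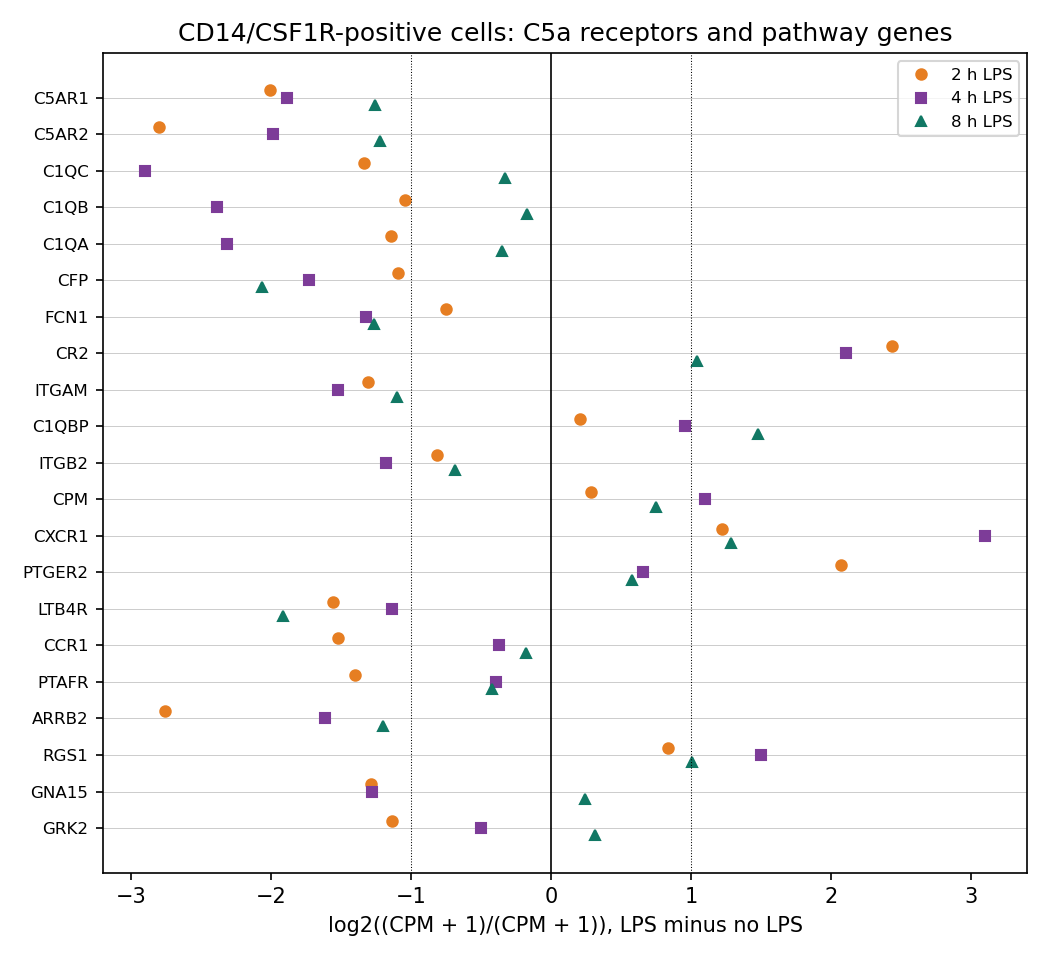
Log2 ratios against no LPS at 2 h, 4 h and 8 h in CD14/CSF1R-positive cells for the 2 receptors and the genes of the complement, chemoattractant receptor and signalling lists past 2-fold at any time, leaving out CMKLR1 with its few UMIs. Dotted lines mark 2-fold, points have no replicate error, and ARRB2 at −2.75 lies beside C5AR2 at −2.80 at 2 h.

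In the CSF3R-positive cells the same lists could be read for fewer genes. CFD, CFP and FCN1 were the only components with enough UMIs, and all 3 were at least 2-fold lower at each time, as were 13.8%, 10% and 12.7% of all genes of these cells. ITGAM was at −2.58, −3.68 and −3.51 and ITGB2 at −1.33, −2.37 and −1.34. CXCR1 was at −1.43, −1.13 and −1.60, where it was above 0 in the CD14/CSF1R-positive cells, and CCR1 at −1.23, −1.27 and −1.34. Genes at least 2-fold higher were 8.7%, 17% and 17.7% here, and RGS1 was one of them at 4 h and 8 h, at 1.45 and 1.24. ARRB2 was again among the lower signalling genes, at −2.56, −3.74 and −2.69 on 23, 17, 7 and 6 UMIs.

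The receptor genes lie next to each other, in the order CCDC9, INAFM1, C5AR1, C5AR2, DHX34 and MEIS3, in the RefSeq table of the assembly ARS-UCD2.0. The counts were made on ARS-UCD1.2, so no position is given. The spans of C5AR2 and DHX34, an RNA helicase gene, overlap in that table and counting by strand is not stated in the sources used here, so reads of the overlap could be assigned to either gene. DHX34 stood at 3.80, 2.25, 1.95 and 4.52 CPM in the CD14/CSF1R-positive cells, below C5AR2 in each library. Of 4 measured neighbours none was past 2-fold at any time, beside 7.1%, 4.23% and 1.94% of all genes lower and 3.04%, 4.6% and 6.63% higher. NAPA, the most abundant neighbour, was at −0.21, −0.39 and −0.31.

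Chromatin accessibility was read from the scATAC-seq counts per gene, in which the rule that assigns fragments to genes is not given. The no LPS library held 975012 counts with a median of 213 a barcode, against 11957904 to 30250143 counts with LPS, and it shared 228 barcode sequences (7.31% of its own) with the 2 h library. C5AR1 was not listed in the no LPS table. With LPS it stood at 10.6 CPM (2 h, 9.51 to 11.9), 6.78 (4 h, 5.83 to 7.84) and 8.95 (8 h, 7.33 to 10.8), from 322, 182 and 107 counts.

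C5AR2 stood at 14.4 CPM without LPS (7.85 to 24.1), then 22.2 (2 h, 20.5 to 23.9), 15.4 (4 h, 13.9 to 16.9) and 20.2 (8 h, 17.8 to 23.0). The first value rests on 14 counts and its interval overlapped each of the others, so no difference against no LPS was detectable at this depth. Among LPS libraries the 4 h value was below the 2 h value for both genes, by log2 ratios of −0.58 for C5AR1 and −0.50 for C5AR2. DHX34 stood at 82.1, 88.9, 88.1 and 92.7 CPM without LPS and at 2 h, 4 h and 8 h. CD14 was lower at 4 h as well, at 21.5 CPM at 2 h and 15.6 at 4 h, and was not listed in the other libraries. The B cell gene CD79B stood at 15.8 and 16.3 at 2 h and 4 h. The part of the mix of cells in these values was not tested. At 2 h, where the RNA of C5AR2 over all cells stood at 2.17 CPM, its accessibility value was above that at 4 h, and its interval overlapped that at 8 h.

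The scATAC-seq barcodes carry no cell types, and they were split by counts at 2 or more of CD14, CSF1R, CSF3R, SPI1 and CEBPB. At 2 h, with 4 of these genes listed, C5AR1 stood at 20.2 CPM in the 574 barcodes past the split and at 6.62 in the other 3598, and C5AR2 at 26.8 and 20.2. At 4 h C5AR1 stood at 10.9 and 4.30 and C5AR2 at 19.6 and 12.8. The B cell gene CD79B stood at 16.4 and 15.5 at 2 h and at 13.4 and 18.0 at 4 h. At 8 h 2 of the 5 genes were listed, and C5AR1 was at 5.19 in 125 barcodes past the split, from 8 counts, and at 9.51 in the others. C5AR2 was at 19.4 and 20.4 there. Barcodes past the split were deeper, with medians at 2 h of 11595.5 and 4536 counts, and after thinning to 1000 counts 1.74% and 0.862% held C5AR1, with overlapping intervals. At 4 h the thinned shares of C5AR1 were 0.613% and 0.741%, from 3 and 18 barcodes, against the order of the levels, so no order is read there.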

How the data were processed

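For 4 scRNA-seq libraries the deposited tables hold UMI counts by gene and barcode, made by the authors with Cell Ranger on ARS-UCD1.2 per the submitters' processing notes and the study's methods, and for 4 scATAC-seq libraries fragment-based counts by gene and barcode, with no normalization and a counting rule not given in the sources used here. Of the scATAC-seq values most are even, so intervals were also made from halved counts. C5AR1, C5AR2, the gene lists and the tests were chosen with earlier results of these data known.

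Barcodes were kept from 200 genes and 200 UMIs upward and below 20% mitochondrial UMIs, with no upper limit on genes, whereas the study states a limit of 3000. Counts were scaled to 10000 a cell, transformed to ln(x + 1), reduced to 2000 variable genes without C5AR1 and C5AR2 and 30 principal components, and clustered (15 neighbours, Leiden resolution 1, scanpy 1.11.5 in Python 3.11.15). T-like, B-like and NK-like clusters had at least 3 markers, each in at least 10% of cells and 1.5 times the level elsewhere, and more than of any other list. Cluster 0 (2724 cells, T cell markers) and cluster 24 (81 cells, B cell markers) passed this rule and were left unnamed by hand. C5AR1 in cluster 0 stood at 1.72, 0.252, 0 and 0.653 CPM. No doublet caller was run, and cluster 14 joins markers of 2 cell types. UMIs were summed and given as CPM, with a pseudocount of 1 in ratios and exact Poisson, binomial (Clopper-Pearson) or conditional binomial intervals without it. A list gene was read with at least 20 UMIs over the sums compared and called past 2-fold. A count of 0 allows 3 counts.

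The genes named are both receptors, those ranked next to C5AR2 at 2 h, the 5 most like each receptor, list genes past 2-fold (up to 8 a list) in CD14/CSF1R-positive cells, and CD14, CSF1R, CSF3R, C3AR1, C5 and CPM, and any other was chosen after its values were seen. edgeR 4.0.16 (TMM) and DESeq2 1.42.0 (size factors) were used for alternative scaling only. The ratio step was tested on simulated data with 200 changed genes. Each treatment had 1 library per assay, so no p-value was computed.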

Additional observations from a re-analysis of the deposited data

Results flagged for a closer look

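C5AR1 in the GATA2-positive cluster 20 was higher in each LPS library than without LPS, while in the CD14/CSF1R-positive and CSF3R-positive cells it was lower in each. The log2 ratios in the cluster were 0.69 at 2 h, 0.73 at 4 h and 0.71 at 8 h, against −2.0, −1.89 and −1.25 and against −2.58, −3.73 and −2.80. With 1 library per treatment the difference was not tested, and the cluster's own values rest on 25 to 45 UMIs with overlapping intervals. The summed T cell markers of the cluster stood at 316 CPM without LPS and 584, 721 and 412 with LPS, and its summed monocyte markers at 544 and 144, 102 and 141, and their part in the difference was not tested.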

How the results depend on the processing

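No paired analysis was possible because each group held 1 library, and leaving out a replicate was not possible for the same reason. Of 156 alternatives of the 18 log2 ratios in all cells, CD14/CSF1R-positive and CSF3R-positive cells, 156 were below 0 and 149 at or below −1, from −4.81 to −0.29. None changed direction, which a change of pseudocount could not bring about. TMM and DESeq2 size factors rescale the same counts, and the other alternatives share most of their cells with the main values. The alternatives of C5AR2 at 2 h hold the fall for which it was chosen. The tally is therefore a description and no independent support. For the accessibility values 21 of 21 alternatives stayed within counting error, but for most of them this was fixed in advance. Halved counts leave the value as it is. Every barcode of the LPS libraries had at least 500 counts, so that limit removed none there. Why values moved was not tested. With at most 3000 genes a cell, all cells gave −2.79, −3.43 and −2.46 for C5AR1 and −2.20 at 8 h for C5AR2, and CD14/CSF1R-positive cells gave −1.58 at 4 h and −0.50 at 8 h for C5AR1 and −3.42 at 2 h and −0.83 at 8 h for C5AR2. Weighting cells equally gave −2.38, −2.80 and −1.76 for C5AR1 and −2.34 and −2.37 at 2 h and 4 h for C5AR2 over all cells. A pseudocount of 0.1 gave −3.26 and −3.06 at 2 h and 4 h for C5AR2 over all cells, and one of 5 gave −2.47 and −2.79 for C5AR1, −1.89, −1.83 and −1.11 for C5AR2 over all cells and −2.36 at 2 h for C5AR2 in CD14/CSF1R-positive cells. With shares of UMIs as without LPS, chosen after the data were seen, the values were −2.06, −1.94 and −1.23 for C5AR1 and −1.93 and −1.16 at 4 h and 8 h for C5AR2. The same with at most 3000 genes a cell gave −2.04, −1.60 and −0.53 for C5AR1 and −1.80 and −0.84 at 4 h and 8 h for C5AR2.

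DESeq2 size factors gave −1.70 at 2 h and −1.54 at 8 h for C5AR1 and −1.50 at 8 h for C5AR2 in CD14/CSF1R-positive cells, TMM −1.72, −1.54 and −1.49 for the same, and both −1.69 for C5AR1 at 8 h over all cells. In CD14/CSF1R-positive cells C5AR1 at 4 h was −2.01 with resolution 0.5, −2.02 with a UMI each of CD14 and CSF1R and −2.05 with clusters 7 and 14 added after the data were seen, and C5AR2 at 2 h was −2.47 with a UMI of each. Resolution 2 gave −0.50 and −0.29 there at 8 h, and in CSF3R-positive cells −3.05 at 4 h for C5AR1 and −0.90 at 2 h for C5AR2. It left under 20 CD14/CSF1R-positive cells at 2 h and 4 h, and was not run there. Cells with 2 CSF3R UMIs and none of CD14 and CSF1R gave −4.81 for C5AR2 at 4 h and were under 20 at 8 h. Cells with a CSF3R UMI, chosen after the data were seen, gave −2.21 for C5AR1 at 8 h.

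Without thinning, 85.3%, 70.6%, 72.1% and 88.1% of CD14/CSF1R-positive cells held C5AR1 and 43.1%, 12.1%, 18.4% and 45.4% C5AR2, and 50.6%, 17.1% and 12.1% of CSF3R-positive cells (no LPS, 2 h, 4 h) held C5AR1. Thinned to 1000 UMIs, the CD14/CSF1R-positive shares were 36.7%, 10.6%, 11.3% and 25.8% for C5AR1 and 5.41% and 1.67% (no LPS, 4 h) for C5AR2, and 3.18% of CSF3R-positive cells held C5AR2 at 2 h. Genes at least 2-fold higher with at least 200 UMIs numbered 260 and 283 at 4 h and 8 h in CD14/CSF1R-positive cells and 69, 121 and 72 in CSF3R-positive cells, and those lower 453, 259 and 128 and 120, 111 and 94. With no filter, 2010, 2704 and 3001 genes were higher and 1957, 1639 and 1901 lower in CSF3R-positive cells.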
